A study of Homo sapiens with 4 samples.

Results

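Transforming growth factor β (TGF-β) signals through a short chain of proteins, and 10 genes that encode its core were followed in YTHDF1-overexpressed gastric cancer cells. They comprise the ligands TGFB1, TGFB2 and TGFB3, the receptors TGFBR1 and TGFBR2, and the intracellular SMADs SMAD2, SMAD3, SMAD4, SMAD6 and SMAD7. The genes were taken by symbol from the deposited counts. All 10 were among the 46427 genes listed, and all 10 passed the filter on low counts, which kept 17781 genes. Their counts ran from 31 to 17965 per library.

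SNU638, an established line of human gastric cancer cells, had been given either a control vector (Control) or a vector for YTHDF1, a protein that binds m6A-modified RNA. Each vector had 2 libraries, numbered 1 and 2 and called biological replicates in the labels. Cells of every library spent 24 h in serum-free medium and then received IFN-γ at 10 ng/ml, so there were no untreated cells. The labels give 8 h of IFN-γ, whereas the figure legends of the study give a longer time. Neither the promoter of the vectors nor the share of cells that carried them was stated in the sources used here.

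TGF-β ligands are secreted in a latent form and, once released, bind the type II receptor TGFBR2, which then activates the type I receptor TGFBR1. TGFBR1 phosphorylates SMAD2 and SMAD3, which join SMAD4 and regulate genes in the nucleus, and SMAD6 and SMAD7 restrain the pathway. In epithelial cells the pathway is known for growth arrest and, in tumours, for loss of epithelial traits and for damping immune responses.

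Total counts ran from 57398137 to 60864942 per library. Expression is given as CPM, counts relative to library sizes that had been scaled by TMM, a method that trims extreme genes. YTHDF1 had 82.2 and 80.3 CPM in Control 1 and 2 and 16489 and 2627 CPM in YTHDF1 1 and 2, so it was higher with its vector and unequal between the YTHDF1 libraries. Libraries were most alike by number, with a Pearson's r across genes of 0.985 between the libraries of number 1 and 0.983 between those of number 2, against 0.885 between the Control libraries and 0.888 between the YTHDF1 libraries. These correlations are over genes, which are not independent replicates. The 8 epithelial markers summed to 4058 to 6804 CPM per library, and 2 of them were higher and 3 lower in number 2. Defining markers of other cells were low, since the 6 fibroblast markers summed to at most 0.864 CPM, the 6 leukocyte markers to at most 6.47 CPM and the 4 endothelial markers to at most 0.934 CPM, and PTPRC of leukocytes and PDGFRA of fibroblasts were at or near 0. In bulk samples fewer cells of a type and less RNA per cell cannot be told apart.

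None of the 10 genes was called between the vectors in a fit with no term for the replicate number. The vectors were compared with edgeR's quasi-likelihood test on all 4 libraries. Differences between the numbers entered the spread within each vector, so this fit could call few genes. A count of 0 is thus no sign that the vectors were alike. A gene was called at an absolute log2 fold change of at least 0.5 with an unadjusted p under 0.05. By that rule 0 of the 10 were called, against 0.101% of all genes tested. At an unadjusted p under 0.05 of any size the number was also 0, with edgeR and with DESeq2's Wald test, against 0.135% of all genes tested with edgeR, and the unadjusted p ran from 0.165 for TGFBR1 to 0.980 for SMAD3. The Benjamini-Hochberg adjusted p over all genes tested was 1.00 for each gene. The median log2 fold change of the 10 was 0.03, and 7 of them were above 0 and 3 below, beside a median of 0.0047 over all genes tested. Only TGFB3 and TGFBR1 had vectors whose libraries did not overlap, which is 2 of 10 against 11.5% of all genes tested. For 6 of 10 the vector difference had the same sign within both numbers, against 49.2% of all genes tested. With the replicate number added to the fit as a block, TGFB3 and SMAD6 were called, 2 of 10 against 1.08% of all genes tested, and 3 of 10 had an unadjusted p under 0.05, against 3.8%, each with an adjusted p of 1.00.

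Some of the same genes differed between the replicate numbers, as did many other genes. The median absolute log2 fold change was 0.309 for the 10 and 0.308 for all genes tested, so this is not particular to them. In a fit of number 2 against number 1 with a term for the vector, called at an absolute log2 fold change of at least 0.5 and an adjusted p under 0.05, TGFB2 and SMAD3 were higher in number 2 and TGFBR2 and SMAD6 were lower. That is 4 of 10, against 25.8% of all genes tested, of which 9.71% were higher and 16% lower. At an adjusted p under 0.05 of any size the count was 6 of 10, with TGFB1 and SMAD4 added, against 51.8%. The numbers did not overlap for 7 of the 10, against 77.1% of all genes tested, and the difference had the same sign within both vectors for 8 of 10, against 83.7%. What a number stands for was not stated in the sources used here. Same-numbered libraries may share a culture or a preparation. These p-values rest on how far the difference between the numbers varied from vector to vector. They do not measure whether it would recur in another culture.

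**Figure D1:**
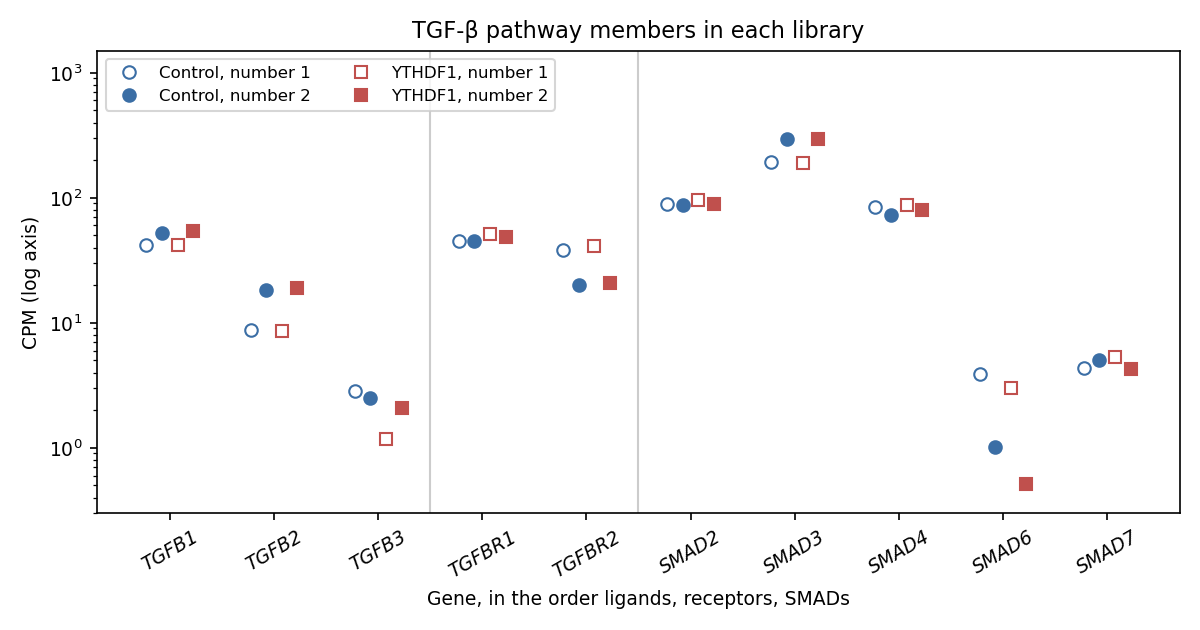
CPM on a log axis of the 10 genes in each of the 4 libraries, with circles for Control and squares for YTHDF1, open for number 1 and filled for number 2. Filled and open symbols do not overlap for 7 of the 10 genes, and lie farthest apart for TGFB2, TGFBR2, SMAD3 and SMAD6. Circles and squares of the same fill lie close together except for TGFB3 and SMAD6.

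Among the ligands, TGFB1 (NCBI Gene ID 7040), the form most tissues make, had 42.3 and 52.3 CPM in Control 1 and 2 and 42.1 and 54.3 CPM in YTHDF1 1 and 2. Both libraries of number 2 were higher and the vectors overlapped. Its log2 fold change was 0.03 (standard error 0.19) between the vectors and 0.34 (standard error 0.05) between the numbers. The adjusted p of the latter was 6.06e-04 by the quasi-likelihood test, at a fold of 1.26, which is under the size asked for.

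TGFB2 (NCBI Gene ID 7042), a ligand that relies on the co-receptor TGFBR3 to reach the receptors well, had 8.69 and 18.2 CPM in Control 1 and 2 and 8.52 and 18.9 CPM in YTHDF1 1 and 2. The libraries of number 2 stood at about the same level with either vector, apart from those of number 1. It was 2.16-fold higher in number 2, with a log2 fold change of 1.11 (standard error 0.08, adjusted p = 3.49e-06 by the quasi-likelihood test), made of 1.07 in Control and 1.15 in YTHDF1. Between the vectors the log2 fold change was 0.02 (standard error 0.59). Reads of TGFB2 and of TGFB2-AS1, an antisense RNA that overlaps it, cannot be told apart where the counting did not use strand, but the antisense gene had at most 2 counts in a library.

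TGFB3 (NCBI Gene ID 7043), the third ligand, was the member with the widest difference between the vectors. It had 2.86 and 2.50 CPM in Control 1 and 2 and 1.17 and 2.07 CPM in YTHDF1 1 and 2, from 170, 142, 69 and 125 counts. Both YTHDF1 libraries were lower, and YTHDF1 1 was the lowest. The means were 2.68 ± 0.252 CPM in Control and 1.62 ± 0.635 CPM in YTHDF1 (SD, n = 2). The log2 fold change of -0.73 (standard error 0.42, unadjusted p = 0.168 by the quasi-likelihood test) came from -1.28 in number 1 and -0.27 in number 2. Between the numbers TGFB3 was at -0.19 in Control and 0.82 in YTHDF1 on the log2 scale, opposite in sign, and the fit gave 0.28 (standard error 0.26, adjusted p = 0.402).

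The sequence before the start of TGFB2 is shown because TGFB2 was the ligand that differed most by number, next to that of SMAD6, the member that differed most of all. Both are the 250 bases before a RefSeq start on the plus strand, in build GRCh38.p14, and capitals mark matches to the 6 motifs searched on both strands.
TGFB2, chr1:218345086-218345335: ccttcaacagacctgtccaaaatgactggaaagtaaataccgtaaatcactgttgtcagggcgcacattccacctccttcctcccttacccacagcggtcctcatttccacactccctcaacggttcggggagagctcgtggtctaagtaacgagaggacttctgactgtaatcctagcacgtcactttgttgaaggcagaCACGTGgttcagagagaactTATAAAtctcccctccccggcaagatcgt
SMAD6, chr15:66701986-66702235: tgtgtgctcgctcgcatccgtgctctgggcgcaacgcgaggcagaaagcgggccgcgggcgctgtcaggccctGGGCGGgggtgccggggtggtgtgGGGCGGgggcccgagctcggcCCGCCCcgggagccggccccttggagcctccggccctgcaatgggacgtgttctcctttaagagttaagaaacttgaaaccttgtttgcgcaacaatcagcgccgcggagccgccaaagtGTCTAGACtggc

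In TGFB2 the E-box CACGTG, which 6.34% of the 35116 RefSeq promoters of this length hold, lay 49 to 44 bases before the start, and the TATA box TATAAA, in 10.7%, lay 29 to 24 bases before it. SMAD6 held the palindrome GTCTAGAC, a sequence that SMAD proteins bind in vitro, 12 to 5 bases before the start, and this palindrome was in 0.182% of all promoters. It was in no other of the 26 promoters of the 10 genes. SMAD6 also held the GC box GGGCGG at 3 places. That motif was found in 42.6% of all promoters and in 11 of the 26 promoters of the 10 genes, a similar share. The CRE TGACGTCA, in 1.65% of promoters, was in none of the 26, and the STAT motif TTCNNNGAA, in 6.57%, was in 1, at an alternative start of SMAD3. A match describes letters in this window and is not a bound site.

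The type I receptor TGFBR1 (NCBI Gene ID 7046) was even across the libraries, with 45.4 and 45.3 CPM in Control 1 and 2 and 51.4 and 48.8 CPM in YTHDF1 1 and 2. Both YTHDF1 libraries were above both Control libraries by a narrow margin. The log2 fold change between the vectors was 0.14 (standard error 0.08, unadjusted p = 0.165 by the quasi-likelihood test), with 0.18 in number 1 and 0.11 in number 2. Between the numbers it was -0.04 (standard error 0.05, adjusted p = 0.589).

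The type II receptor TGFBR2 (NCBI Gene ID 7048), which binds the ligand, went with the number instead. It had 38.3 and 20.1 CPM in Control 1 and 2 and 41.0 and 20.9 CPM in YTHDF1 1 and 2, so both libraries of number 2 were far below those of number 1. TGFBR2 was 1.93-fold lower in number 2, with a log2 fold change of -0.95 (standard error 0.06, adjusted p = 1.45e-06 by the quasi-likelihood test), -0.93 in Control and -0.97 in YTHDF1. Within a number the vectors differed by 0.10 and 0.06 on the log2 scale. The difference between the receptors in this respect was itself not tested.

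**Figure D2:**
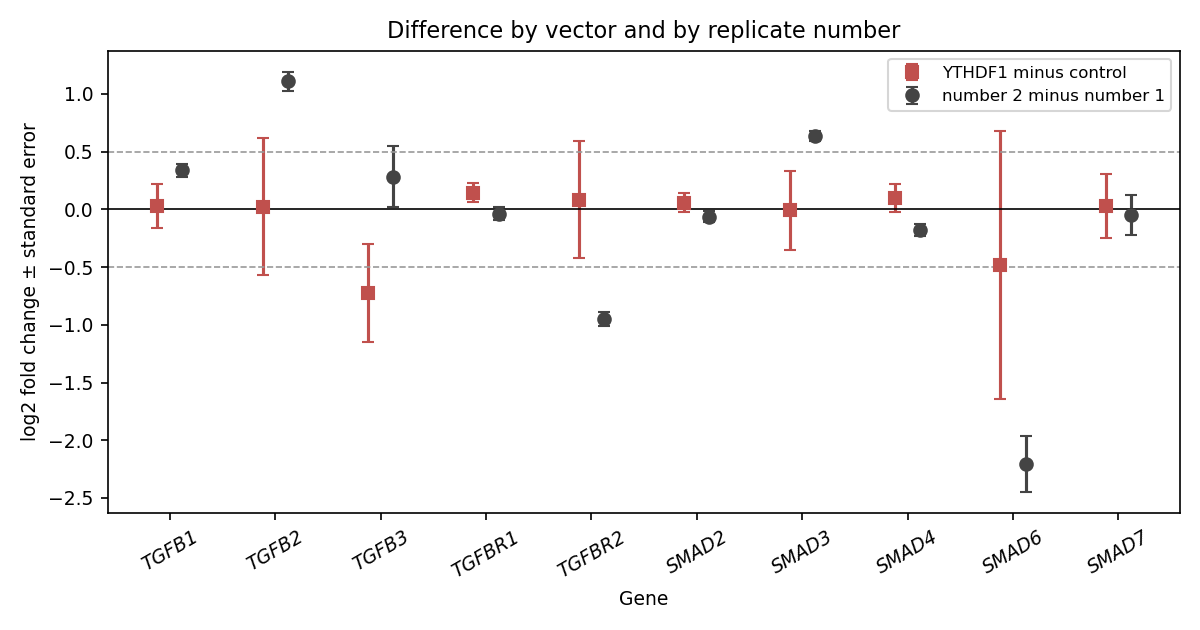
Log2 fold change of each of the 10 genes for YTHDF1 minus Control (squares) and for number 2 minus number 1 (circles), with bars for 1 standard error and dashed lines at the fold change asked for, 0.5 on either side of 0. The bars of the vector comparison are wide for SMAD6 and TGFB2, at 1.16 and 0.59, and those of the number comparison are at most 0.26.

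Of the receptor-activated SMADs, SMAD2 (NCBI Gene ID 4087) had 89.7 and 87.8 CPM in Control 1 and 2 and 95.3 and 89.2 CPM in YTHDF1 1 and 2. Its libraries overlapped by vector, and its log2 fold change was 0.06 (standard error 0.08) between the vectors and -0.06 (standard error 0.05) between the numbers. SMAD3 (NCBI Gene ID 4088), which unlike the main form of SMAD2 binds DNA directly, had 193 and 296 CPM in Control 1 and 2 and 189 and 297 CPM in YTHDF1 1 and 2. It was thus higher in both libraries of number 2, by 1.55-fold, a log2 fold change of 0.64 (standard error 0.04, adjusted p = 1.45e-06 by the quasi-likelihood test). The vectors differed by -0.03 in number 1 and 0.01 in number 2 on the log2 scale. Of these partners SMAD3 was called by number and SMAD2 was not, and the difference between them was not tested.

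SMAD4 (NCBI Gene ID 4089), the common partner of the receptor-activated SMADs, had 85.1 and 72.4 CPM in Control 1 and 2 and 87.9 and 80.5 CPM in YTHDF1 1 and 2. Both libraries of number 2 were lower, by 1.13-fold, which was under the size asked for (log2 fold change -0.18, standard error 0.05, adjusted p = 0.0128 by the quasi-likelihood test). Between the vectors it was at 0.10 (standard error 0.12).

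SMAD6 (NCBI Gene ID 4091), an inhibitory SMAD that acts mainly on the BMP arm of the family, had the widest difference between the numbers. It had 3.88 and 1.02 CPM in Control 1 and 2 and 3.01 and 0.513 CPM in YTHDF1 1 and 2, from 231, 58, 177 and 31 counts. Both libraries of number 2 were well below those of number 1, and within either number YTHDF1 was below Control. SMAD6 was 4.62-fold lower in number 2 (log2 fold change -2.21, standard error 0.24, adjusted p = 4.71e-05 by the quasi-likelihood test), by -1.92 in Control and -2.53 in YTHDF1. Between the vectors it was at -0.37 in number 1 and -0.98 in number 2, and the fit gave -0.48 (standard error 1.16, unadjusted p = 0.703).

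The other inhibitory SMAD, SMAD7 (NCBI Gene ID 4092), blocks TGFBR1 and is itself raised by TGF-β. It had 4.37 and 5.08 CPM in Control 1 and 2 and 5.35 and 4.30 CPM in YTHDF1 1 and 2, with no order by vector or by number. Its vector difference was 0.29 in number 1 and -0.24 in number 2 on the log2 scale, and its log2 fold change between the numbers was -0.05 (standard error 0.17, adjusted p = 0.829 by the quasi-likelihood test). Of the inhibitory SMADs, then, SMAD6 alone was called by number.

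**Figure D3:**
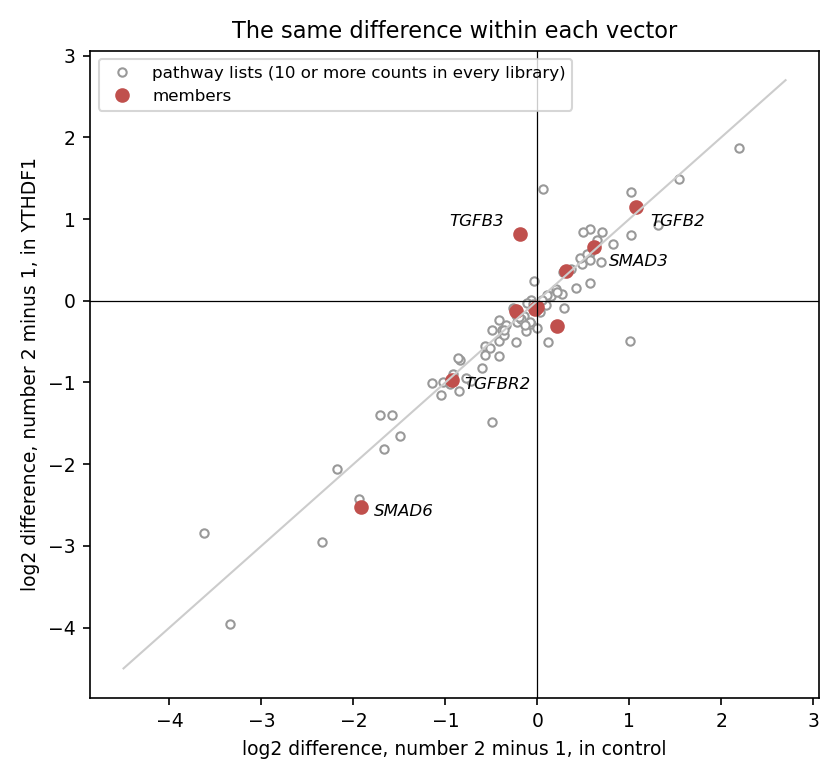
Log2 difference of number 2 minus number 1 within YTHDF1 against the same within Control, with the 10 genes filled and 82 genes of the pathway lists that had at least 10 counts in every library open, and a grey line where both are equal. TGFB2 (1.07 in Control and 1.15 in YTHDF1), SMAD3 and TGFBR2 lie near the line, and SMAD6 (-1.92 and -2.53) lies below it. Among the 10 genes TGFB3 (-0.19 and 0.82) lies farthest off it, and some pathway genes lie farther.

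To set levels of different genes side by side, CPM were divided by the length of the longest coding transcript in GENCODE 29, in kb. On this scale the mean over the 4 libraries was 39.0 CPM per kb for SMAD3, 17.2 for TGFB1, 9.29 for SMAD4, 7.32 for TGFBR1 and 6.51 for TGFBR2. TGFB2 had 2.69 CPM per kb, SMAD2 2.62, SMAD7 1.08, TGFB3 0.853 and SMAD6 0.549. The neighbours TGFBR1 and TGFBR2, TGFB2 and SMAD2, SMAD7 and TGFB3, and TGFB3 and SMAD6 overlapped across libraries and have no order. SMAD2 depends on the transcript taken, since its longest is 34526 bases and the next, of 12075 bases, would give 7.49 CPM per kb. With the union of all exons as the length, SMAD4 came after both receptors. So TGFB1 was the most abundant of the 3 ligands, and SMAD3 the most abundant of the 5 SMADs with either length for SMAD2.

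In the GENCODE 29 annotation of GRCh38, SMAD6 (chr15:66702228-66782848) and SMAD3 (chr15:67063763-67195195) lie on the same chromosome and strand, and differed in opposite directions between the numbers. TGFB2 is at chr1:218346235-218444619 and TGFBR2 at chr3:30606502-30694142, both on the plus strand. Chromosome 18 holds SMAD4 (chr18:51028394-51085045, plus strand), SMAD2 (chr18:47808957-47931146) and SMAD7 (chr18:48919853-48952052), the latter pair on the minus strand. TGFB1 is at chr19:41301587-41353911 and TGFB3 at chr14:75958099-75982991, both on the minus strand, and TGFBR1 is at chr9:99104038-99154192 on the plus strand. The counts are of reads over whole genes, so no exon or isoform is resolved.

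The wider pathway was described by 6 lists, of 116 genes in all, of which 94 passed the filter. Between the vectors 0 of the 94 were called by either rule. Over all genes tested 0.101% were called at the thresholds of the study and 0% at an adjusted p under 0.05. Of the 94, 0 had an unadjusted p under 0.05 with edgeR or with DESeq2, against 0.135% of all genes tested with edgeR. With so few called over all genes, a count of 0 is no sign that the vectors were alike. With the replicate number as a block, 0 of the 94 were called and 4 had an unadjusted p under 0.05. Over all genes tested these shares were 1.08% and 3.8%. Between the numbers 14 were higher and 31 lower, 47.9% against the 25.8% of all genes tested, with a median log2 fold change of -0.20 beside -0.012. The median of the 10 members was -0.044, with 2 higher and 2 lower.

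**Figure D4:**
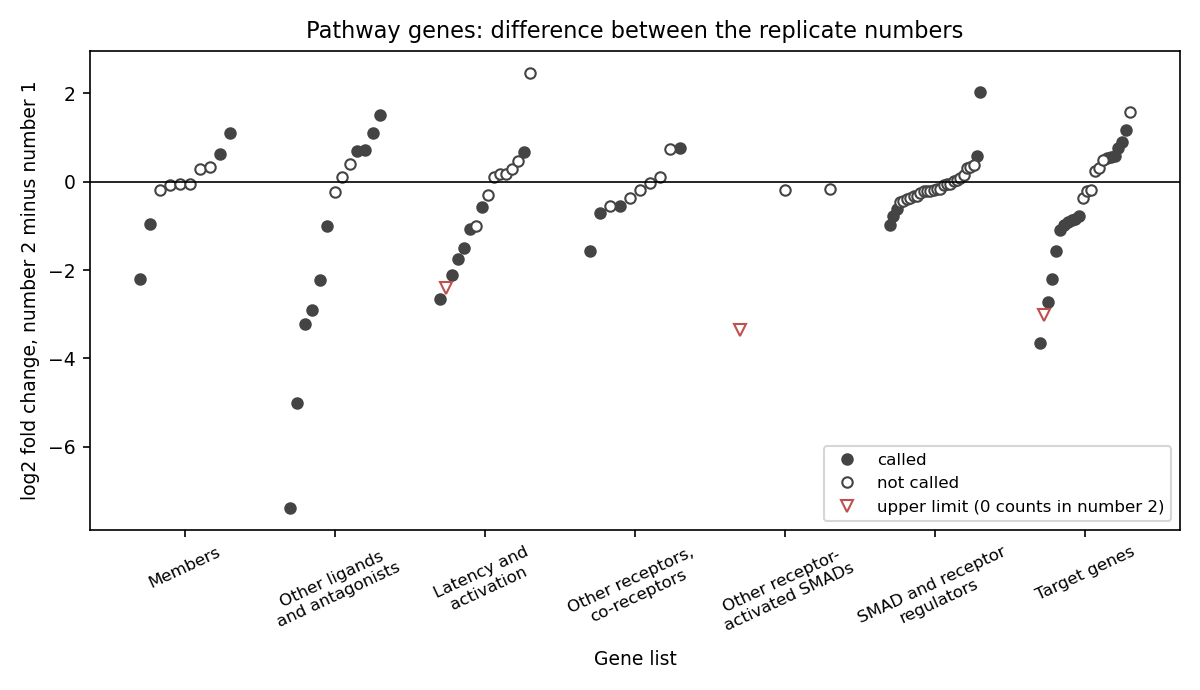
Log2 fold change of number 2 minus number 1 for each tested gene of the 10 members and of the 6 pathway lists, filled where called, with triangles at the upper limit for 3 called genes with 0 counts in both libraries of number 2. Members run from -2.21 for SMAD6 to 1.11 for TGFB2, and BMP7, with 4 and 0 counts in number 2, is drawn at its fitted value at the bottom of the ligand list.

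Other ligands of the family and their antagonists moved by number in both directions, with 4 higher and 6 lower of 13 tested. That is 76.9% called, against 25.8% of all genes tested, and the median log2 fold change was -0.24. INHBA, which makes activin A, a ligand that also acts through SMAD2 and SMAD3, had 24.3 and 70.8 CPM in Control 1 and 2 and 25.6 and 71.9 CPM in YTHDF1 1 and 2 (log2 fold change 1.52, adjusted p = 2.33e-08 by the quasi-likelihood test). Its antagonist FST was also higher in number 2, by 1.11 on the log2 scale, as was GDF11, by 0.72. The lower genes named by the rule were of the BMP arm, with CHRD, a BMP antagonist, at -3.22, and BMP7 at 395 and 4 counts in Control 1 and 2 and 318 and 0 in YTHDF1 1 and 2. BMP6 had 25 and 0 counts in Control and 16 and 1 in YTHDF1. The lower genes were not of the BMP arm alone. INHBB and MSTN, outside it, were also called lower, at -2.91 and -2.22 from low counts.

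Genes of TGF-β latency and activation, which hold the ligand inactive or free it, had 1 higher and 7 lower of 16 tested, with a median of -0.43. The called share was 50%, against 25.8% of all genes tested. LTBP3, which ties the latent ligand to the matrix, had 102 and 22.4 CPM in Control 1 and 2 and 93.8 and 22.5 CPM in YTHDF1 1 and 2 (log2 fold change -2.12, adjusted p = 2.41e-09 by the quasi-likelihood test). THBS1, which can activate the latent ligand, was lower, with a log2 fold change of -2.65, and the protease MMP9, with 0 counts in both libraries of number 2, was at least 5.27-fold lower by a floor of 3 counts in each of those libraries. The related protein LTBP1 was the only called gene of the list that was higher, by 0.67.

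Of 10 other receptors and co-receptors tested, 1 was higher and 3 were lower, at a median of -0.28. That is 40% called, against 25.8% of all genes tested. BMPR2, a type II receptor for BMPs, had 77.9 and 127 CPM in Control 1 and 2 and 75.8 and 136 CPM in YTHDF1 1 and 2, opposite to TGFBR2 (log2 fold change 0.77, adjusted p = 1.17e-06 by the quasi-likelihood test). The log2 fold change was -1.56 for the decoy receptor BAMBI, -0.71 for the activin receptor ACVR2B and -0.55 for TGFBR3, the co-receptor for TGFB2. TGFBR3 therefore differed in the direction opposite to TGFB2.

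The 3 receptor-activated SMADs of the BMP arm were each lower in both libraries of number 2, and SMAD9 was the one called. Over all genes tested the numbers did not overlap for 77.1% and 25.8% were called, so this is not particular to the 3 genes. SMAD1 had 25.1 and 23.9 CPM in Control and 27.8 and 22.8 CPM in YTHDF1, and SMAD5 had 82.6 and 74.7 CPM in Control and 87.6 and 76.9 CPM in YTHDF1. Their log2 fold changes were -0.18 and -0.17, under the size asked for, with adjusted p of 0.0695 and 0.0144 by the quasi-likelihood test. SMAD9 had 31 and 0 counts in Control 1 and 2 and 31 and 0 in YTHDF1 1 and 2, at least 10.2-fold lower in number 2. The difference between SMAD9 and the others was not tested.

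Of 28 regulators of SMADs and receptors tested, 2 were higher and 3 lower, a called share of 17.9% that lies below the 25.8% of all genes tested and so is no result about the list. PMEPA1, which sequesters SMAD2 and SMAD3 and is itself a TGF-β target, had 7.67 and 35.0 CPM in Control 1 and 2 and 8.61 and 31.6 CPM in YTHDF1 1 and 2 (log2 fold change 2.03, adjusted p = 8.12e-08 by the quasi-likelihood test), and the corepressor NCOR1 was higher by 0.58. The ubiquitin ligases SMURF2 and NEDD4L were lower, with log2 fold changes of -0.98 and -0.61, and so was the coactivator EP300, at -0.78. SMURF2, which with SMAD7 marks TGFBR1 for breakdown, had 235 and 122 CPM in Control 1 and 2 and 245 and 121 CPM in YTHDF1 1 and 2.

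Genes listed as raised by TGF-β had 6 higher and 11 lower of 24 tested in number 2, at a median of -0.29. The called share was 70.8%, against 25.8% of all genes tested. ID1, a gene that BMP signals raise, is counted among the 11. The crosslinking enzyme TGM2 was higher by 1.17 on the log2 scale, the transcription factor BHLHE40 by 0.91 and smooth muscle actin ACTA2 by 0.76. LOXL2, a matrix crosslinking enzyme, had 7.58 and 0.740 CPM in Control 1 and 2 and 8.06 and 0.513 CPM in YTHDF1 1 and 2 (log2 fold change -3.65, adjusted p = 4.82e-07 by the quasi-likelihood test). PTHLH, a hormone-like factor, had 17 and 0 counts in Control and 20 and 6 in YTHDF1, and TWIST1, a factor of mesenchymal cells, was at least 8.07-fold lower, with 0 counts in both libraries of number 2. The list moved in both directions.

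The 8 epithelial markers differed by number in both directions, with 2 called higher and 3 lower. Over all genes tested 9.71% were higher and 16% lower. The keratins KRT8 and KRT18 were higher in number 2, with log2 fold changes of 0.79 and 1.01, and CLDN4, ELF3 and the cadherin CDH1 (-0.58) were lower. EPCAM, KRT19 and CLDN7 were not called, at -0.18, 0.36 and -0.34. The widest differences were in CLDN4, a tight junction protein, with 55.0 and 0.934 CPM in Control 1 and 2 and 56.6 and 0.993 CPM in YTHDF1 1 and 2, and in the epithelial transcription factor ELF3, with 32.9 and 3.03 CPM in Control and 38.5 and 2.96 CPM in YTHDF1. The part of these markers in the differences of TGFB2, SMAD3, TGFBR2 and SMAD6 was not tested. They were named after their values were seen.

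The genes whose pattern over the 4 libraries was closest to that of SMAD6, by the Euclidean distance between log2 CPM after each gene's mean was subtracted, were LOC105373071, IL11 and LOC105373896, at 0.130, 0.203 and 0.229. They are the closest of the 17781 genes tested, over 4 libraries only. LOC105373071 had 0.286 and 0.0705 CPM in Control 1 and 2 and 0.204 and 0.0331 CPM in YTHDF1 1 and 2. Its pattern thus rests on few reads. IL11, a cytokine, had 1.31 and 0.335 CPM in Control 1 and 2 and 1.10 and 0.199 CPM in YTHDF1 1 and 2. IL11 is in the list of target genes and was among those called lower in number 2.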

How the data were processed

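The authors deposited counts, whole numbers of reads per gene without normalization, from stranded poly(A) libraries. The submitters' processing notes name Trimmomatic, HISAT2 and GRCh38, and the counting tool and its strand setting are not given in the sources used here. Total counts per library limit the precision, and bounds from counts of 0 cover counting error alone, because no molecular identifiers mark separate molecules. Libraries that shared a vector differed beyond sampling noise (chi-square over its degrees of freedom, 136 for Control and 167 for YTHDF1), and each counted as 1 sample.

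In R 4.3.3, genes were kept by filterByExpr in edgeR 4.0.16, scaled by TMM and tested by the quasi-likelihood test, with Benjamini-Hochberg adjustment over 17781 genes. The vector fit had no other term. The fit of the numbers had a term for the vector. Standard errors were taken as the absolute log2 fold change divided by the square root of F. Differences within a vector or number are of log2 CPM with a prior count of 0.5. Alternatives were DESeq2 1.42.0 size factors and its Wald test, other filters, YTHDF1 left out of the library sizes, a replicate block and each library left out. The procedure was also run on simulated data, and the outcome is not given here.

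The members and lists were chosen with earlier results of these data known, and the lists were written from general knowledge. The 10 members were named, and from each list up to 3 genes per direction with the widest called difference between the numbers. Sequences are from RefSeq, build GRCh38.p14. Plots were made in Python 3.11.15 with matplotlib 3.10.9.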

Additional observations from a re-analysis of the deposited data

How the results depend on the processing

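For YTHDF1 against Control, 18 genes were called at the thresholds of the study, and the number was 82 with no filter on low counts, 192 with a replicate block and 47 to 60 with each library left out. At an adjusted p under 0.05 the number was 0 with edgeR, 3 with DESeq2's Wald test, 10 with the block and 0 with any library left out. With the replicate number as a block, 2 of the 10 members were called instead of 0, TGFB3 at a log2 fold change of -0.76 (unadjusted p = 0.0170) and SMAD6 at -0.61 (unadjusted p = 0.0289), each with an adjusted p of 1.00, and TGFBR1 had an unadjusted p of 0.0267. Deviations of same-numbered libraries from their group means had an r of 0.875 over 17781 genes, but with 2 numbers of unstated meaning the numbers were not taken to pair the libraries.

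With 1 library left out, a vector holds 1 library of a single number, assumed to vary like the others, and the direction of the vector difference turned for 7 members. The log2 fold changes then ran from -0.17 to 0.20 for TGFB1, -0.67 to 0.66 for TGFB2, -0.48 to 0.62 for TGFBR2, -0.38 to 0.33 for SMAD3, -0.017 to 0.22 for SMAD4, -2.25 to 0.78 for SMAD6 and -0.13 to 0.17 for SMAD7, and from -1.20 to -0.37 for TGFB3. Members called were 0 throughout. Between the numbers, where the vector term was dropped for these fits (chosen after seeing the data), values ran from -0.32 to 0.96 for TGFB3, which was called without Control 1 (adjusted p = 0.0156, quasi-likelihood test), from -0.13 to 0.055 for TGFBR1 and from -0.19 to 0.10 for SMAD7. Genes called were 4190 to 4332 and members called 4 to 5, against 4659 and 4 in the fit of all 4 libraries without that term and 4579 and 4 with it. SMAD4's adjusted p reached 0.261. In the other settings all 60 values of members between the numbers kept their direction and side of the threshold.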

Other observations

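A few further BMP genes of the lists, chosen after their values were seen, are given without a test and do not stand for the BMP arm as a whole. BMP4, a BMP ligand, had 45.7 and 22.4 CPM in Control 1 and 2 and 47.1 and 23.7 CPM in YTHDF1 1 and 2. ID1, a gene that BMP signals raise, had 75.9 and 42.1 CPM in Control 1 and 2 and 89.3 and 41.5 CPM in YTHDF1 1 and 2. Both stood lower in both libraries of number 2, as SMAD6 did, whereas the type I receptor BMPR1A had 42.9 and 41.0 CPM in Control and 44.4 and 44.6 CPM in YTHDF1. The ligand BMP2 had 0.874 and 1.30 CPM in Control 1 and 2 and 0.713 and 0.828 CPM in YTHDF1 1 and 2, with overlap between the numbers, and BMPR2 was higher in number 2.

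In the list of target genes, CDKN2B, a cell cycle inhibitor, had 20.4 and 32.9 CPM in Control 1 and 2 and 22.6 and 31.4 CPM in YTHDF1 1 and 2, higher in number 2. CDKN1A of the same list went the other way. It had 267 and 245 CPM in Control 1 and 2 and 308 and 251 CPM in YTHDF1 1 and 2. These genes were also chosen after their values were seen.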
